A study of Mus musculus with 2 samples.

Results

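The passenger arms of the miR-17 type hairpins were measured in mouse helper T cells cultured as a Th0 control or under Th17 conditions. The set holds 8 mature miRNAs chosen by name, all found in both libraries, out of 1125 miRNAs listed in at least 1 library. They are miR-17-3p, miR-19a-5p and miR-20a-3p of the Mir17 cluster, miR-20b-3p and miR-363-5p of the Mir106a cluster, and miR-106b-3p, miR-93-3p and miR-25-5p of the Mir106b cluster. The arms of the mir-18 hairpins were left out of the set by its definition. Each passenger arm was compared with the guide arm of its own hairpin.

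Both cultures began with naive CD4+CD62L+ T cells isolated from spleens of female C57BL/6 mice, grown with 10% serum. The Th0 control received antibodies to CD28 (1 µg/ml), IL-4 (5 µg/ml) and IFN-γ (5 µg/ml). The Th17 culture received these as well, together with antibodies to IL-2 and IL-12 (5 µg/ml each), TGF-β (2 ng/ml), IL-6 (40 ng/ml), IL-1β (10 ng/ml) and IL-23 (40 ng/ml), for 6 to 7 days. No source used here gives how long Th0 cells were kept, so culture time and Th17 conditions cannot be told apart.

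The series text states triplicates, but each group here is 1 column of reads, and no source used here says how triplicates were combined. With 1 library per group no difference could be set against the spread between cultures. The intervals below have a confidence of 95% and cover only the error of counting reads. The Th0 library held 8358010 listed reads over 986 miRNAs and the Th17 library 11975371 over 1012. All 5 T cell markers examined were present, from 2194 to 58347 CPM (listed reads scaled to a library of 1000000) in Th0 and from 1153 to 65898 in the Th17 library. Of the 5, 4 were higher in Th17 and 1 lower, miR-142a-3p (2194 and 1153 CPM). The 14 markers of other cells together had 319 CPM in the Th0 library and 143 in the Th17 library, and the muscle miRNA miR-1a-3p was at 0 reads in both. Of the 14, 7 were higher in Th17 and 6 lower, and the lower sum came mostly from the epithelial miRNA miR-200b-3p (141 and 37.3 CPM). None of the 14 was listed as a B cell marker, and the part of other cells in the ratios below was not tested.

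A miRNA hairpin is cut by Drosha in the nucleus and by Dicer in the cytoplasm into a short duplex. One strand, the guide, is usually kept by an Argonaute protein and pairs with target mRNAs through its seed, while the other strand, the passenger, is mostly degraded. The Mir17 cluster and its paralogs are copied as shared primary transcripts and are known to promote lymphocyte proliferation and survival. Both arms of a hairpin are cut from the same precursor in equal number.

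Of the 8 passenger arms, 6 had a mature sequence in the RefSeq table (build GRCm38.p6), as did all 8 guide arms. The sequences are shown with the seed, bases 2 to 8, in capitals, because the passenger arms differ in seed where their guides do not.
miR-17-3p: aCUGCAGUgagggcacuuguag
miR-20b-3p: aCUGCAGUgugagcacuucuag
miR-20a-3p: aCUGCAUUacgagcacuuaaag
miR-93-3p: aCUGCUGAgcuagcacuucccg
miR-106b-3p: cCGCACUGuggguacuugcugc
miR-25-5p: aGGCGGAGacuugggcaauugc
The guide arms of these 6 hairpins carry 2 seeds.
miR-17-5p: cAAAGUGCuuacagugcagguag
miR-20b-5p: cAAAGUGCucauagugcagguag
miR-20a-5p: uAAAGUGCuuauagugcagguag
miR-93-5p: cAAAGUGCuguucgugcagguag
miR-106b-5p: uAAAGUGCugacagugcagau
miR-25-3p: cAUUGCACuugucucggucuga

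The 6 passenger sequences held 5 different seeds. Only miR-17-3p and miR-20b-3p shared one, CUGCAGU, which in the table is also the seed of miR-106a-3p. By contrast, 5 of the 8 guide arms share the seed AAAGUGC, and the passenger arms of those 5 hairpins carry 4 seeds. Over the 10 pairs among these 5 hairpins, passenger arms differed by 3 to 12 edits (median 7.5) and guide arms by 2 to 7 (median 3.5). The closest other mature sequence in the table lay 3 to 8 edits from a passenger arm and 1 to 7 from a guide arm. miR-17-5p, for example, is 1 edit from miR-106a-5p, whereas miR-17-3p is 3 edits from its closest neighbour, miR-20b-3p. No source used here says how reads that match several miRNAs were assigned, so counts of near-identical guide arms are less certain as separate values than those of the passenger arms.

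The letters GCACUU, the reverse complement of bases 3 to 8 of guides with the seed AAAGUGC, were searched on the miRNA strand. They occur in 4 of the 6 passenger arms, miR-17-3p, miR-20a-3p, miR-20b-3p and miR-93-3p, and in 0.956% of the 1674 distinct mature sequences of the table. The arms of a hairpin pair as a duplex, so the run follows largely from the choice of hairpins and is no sign of enrichment. The guide miR-25-3p also holds it. miR-106b-3p lacks this run although its guide has that seed, and the guide of miR-25-5p has another seed. None of the 6 passenger arms starts with U, a first base that Argonaute proteins are known to favour. Of the 8 guide arms, 3 start with U. Over 122 hairpins with 1 sequence for each arm, 17.2% of passenger arms and 55.7% of guide arms start with U.

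In GRCm38, the assembly of mm10, the hairpins of the Mir17 cluster lie on the plus strand of chromosome 14, overlapping exons of Mir17hg, their noncoding host. Mir17 spans chr14:115043671-115043754, Mir19a chr14:115044000-115044081 and Mir20a chr14:115044157-115044263. Mir20b (chrX:52742113-52742192) and Mir363 (chrX:52741693-52741767) lie on the minus strand of the X chromosome with no annotated host at their own positions. Mir106a, the first hairpin of their cluster, overlaps an exon of Kis2 on the same strand. The Mir106b cluster lies on the minus strand of chromosome 5 within Mcm7, which encodes a subunit of the replicative DNA helicase. Its Mir106b hairpin (chr5:138165737-138165818) is intronic, while Mir93 (chr5:138165523-138165610) and Mir25 (chr5:138165321-138165404) also overlap an exon of at least 1 Mcm7 transcript model. Counted from the first hairpin of each cluster, Mir20a lies 486 bases along from Mir17, Mir20b and Mir363 375 and 800 bases along from Mir106a, and Mir25 414 bases along from Mir106b.

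Passenger arms made up a small part of each library. The 8 together took 0.132% of listed Th0 reads and 0.0980% of listed Th17 reads (exact binomial intervals of 0.1299 to 0.1348% and 0.0963 to 0.0998%), while their guide arms took 3.75% and 2.48%. Levels spanned 80.1-fold in Th0 and 199-fold in Th17. miR-106b-3p alone held 58.6% of the 8 arms' reads in Th0 and 66.1% in Th17. The 6 passenger and 8 guide arms with a sequence are 21 to 23 bases long, and CPM was compared between arms with no length term.

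In Th0 the order from high to low was miR-106b-3p (776 CPM), miR-17-3p (289), miR-25-5p (104), miR-93-3p (57.5), miR-363-5p (43.1), miR-20b-3p (24.9), miR-20a-3p (18.8) and miR-19a-5p (9.69). Of these neighbours, miR-20b-3p and miR-20a-3p were within counting error of each other. In Th17 it was miR-106b-3p (648 CPM), miR-17-3p (167), miR-25-5p (90.8), miR-93-3p (51.8), miR-20a-3p (8.10), miR-363-5p (7.52), miR-20b-3p (4.34) and miR-19a-5p (3.26). Here the pair of miR-20a-3p and miR-363-5p and the pair of miR-20b-3p and miR-19a-5p were within counting error. The top 4 kept their order, and miR-20a-3p moved above both X-linked passenger arms.

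**Figure D1:**
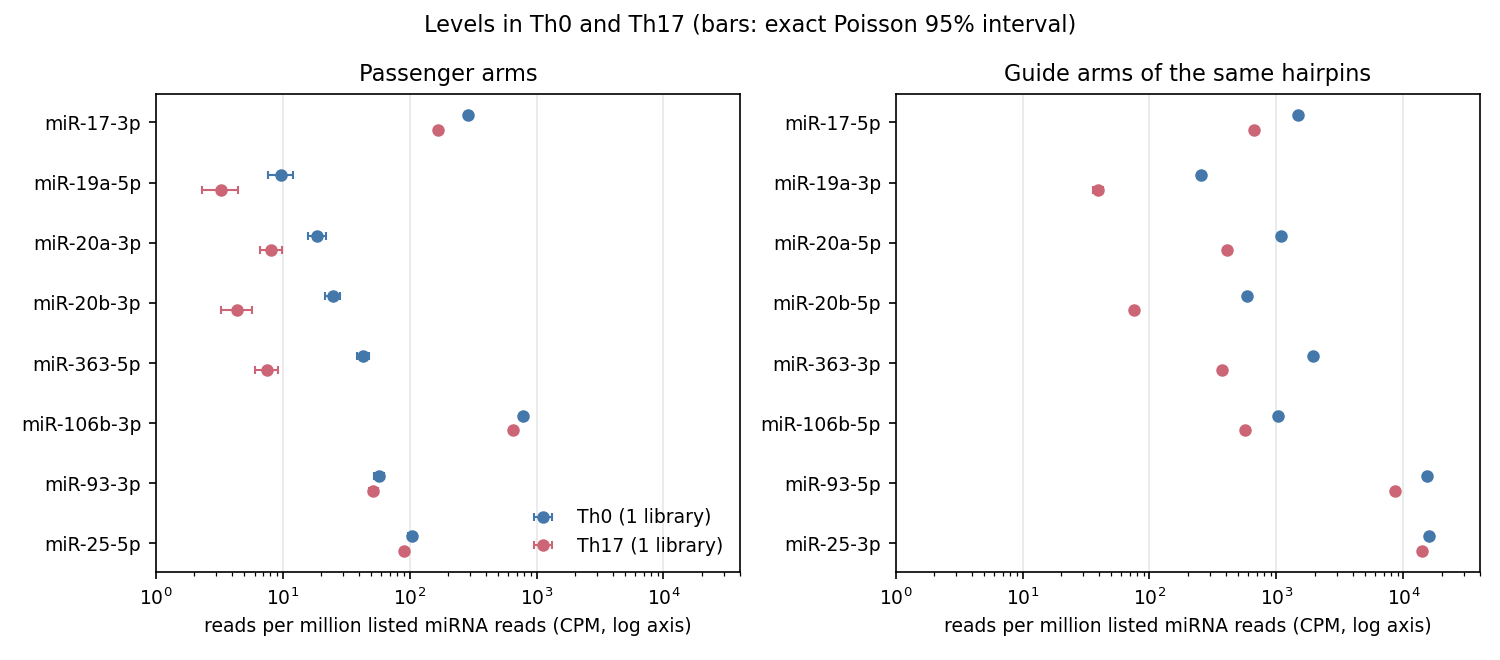
Level of each passenger arm (left) and of the guide arm of the same hairpin (right) in CPM on a log axis, 1 Th0 and 1 Th17 library, with exact Poisson 95% intervals. Every Th17 point lies left of its Th0 point, by the most for miR-20b-3p and miR-363-5p among passenger arms.

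The order of the passenger arms followed that of their guides only in part. In both libraries miR-106b-3p and miR-17-3p ranked highest although their guides did not. The other hairpins ran in the same order by either arm, but for mir-20a and mir-20b in Th0. miR-25-3p and miR-93-5p were the most abundant guides, at 15858 and 15275 CPM in Th0, but had 152 and 265 guide reads for each passenger read. The mir-106b hairpin had 1.32 guide reads per passenger read and the mir-17 hairpin 5.09. The mir-20b, mir-19a, mir-363 and mir-20a hairpins lay between, at 23.5, 26.3, 45.2 and 57.9. The designation of a passenger arm therefore fits 7 of the 8 hairpins by reads in both libraries, and the exception is mir-106b.

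All 8 passenger arms were lower in Th17 by point estimate, and the intervals of 7 lay below a ratio of 1, with miR-93-3p the exception. Among all 1125 listed miRNAs 19.6% had an interval below 1, and among the 298 that averaged at least 10 CPM over the libraries 47.7% did. The median log2 ratio of Th17 over Th0, with 0.5 CPM added to each value, was -0.98 over the 8 passenger arms, -1.28 over their guides and -0.080 over the 298 miRNAs. It was -0.041 over the 89 passenger arms of any hairpin that reached the same minimum. In bulk RNA, fewer cells of a type and less RNA per cell cannot be told apart. Summed over the 8, the level went from 1323 CPM to 980 CPM, 1.35-fold lower in Th17 (1.32 to 1.39). That sum rests on miR-106b-3p, and without it the level went from 547 to 333 CPM, 1.64-fold lower (1.58 to 1.72).

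At the rule of at least 2-fold with an interval below 1, 3 of the 7 arms above that minimum were lower, against 13.1% of the 298 miRNAs and 10.1% of the 89 passenger arms. These 3, miR-20a-3p, miR-20b-3p and miR-363-5p, were below 10 CPM in Th17 and so reached the minimum through Th0, which makes this count no support. With no minimum, 4 of 8 met the rule, the same 3 and miR-19a-5p (9.69 CPM in Th0 and 3.26 in Th17), against 8.89% of the 1125. Only 298 of the 1125 averaged at least 10 CPM, and miRNAs with few reads can seldom meet the rule. That share is therefore not a like background, and this count is no support either. None of the 8 met the rule in the other direction, where 6.71% of the 298 did.

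By point estimate the X-linked passenger arms had the lowest ratios of Th17 over Th0. miR-20b-3p, from the hairpin of miR-20b-5p, a guide reported to restrain Th17 differentiation, had 208 reads in Th0 and 52 in Th17, or 24.9 and 4.34 CPM. In Th17 it was thus lower by a factor of 5.73 (4.21 to 7.92). The second X-linked arm, miR-363-5p, from the last hairpin of the same cluster, had 360 and 90 reads, or 43.1 and 7.52 CPM. Its counts stood in the same proportion, so its fold was the same, with an interval of 4.54 to 7.30. Their guides were 7.70-fold (miR-20b-5p, 7.18 to 8.28) and 5.20-fold lower (miR-363-3p, 5.03 to 5.38). For all 4 of these arms the near bound of the interval was 4.21-fold or more.

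By point estimate the passenger arms of the Mir17 cluster were lower by less than those of the X-linked cluster, although the intervals of miR-19a-5p and miR-20b-3p overlap. miR-17-3p, partner of the cluster's first guide, had 2417 reads in Th0 and 1999 in Th17, or 289 and 167 CPM, and was 1.73-fold lower (1.63 to 1.84). miR-20a-3p had 157 and 97 reads, or 18.8 and 8.10 CPM, and was 2.32-fold lower (1.79 to 3.02). miR-19a-5p had 81 and 39 reads, or 9.69 and 3.26 CPM, and was 2.98-fold lower (2.01 to 4.48). The intervals of miR-20a-3p and miR-19a-5p overlap, as do those of miR-17-3p and miR-20a-3p. Their guides were 2.22-fold (miR-17-5p), 2.66-fold (miR-20a-5p) and 6.53-fold lower (miR-19a-3p).

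The sum over the 3 Mir17 passenger arms was 1.78-fold lower (1.68 to 1.89), from 318 to 178 CPM, and that over the 2 X-linked arms 5.73-fold lower (4.76 to 6.94), from 68.0 to 11.9 CPM. These intervals are far apart. Summed guides showed the same order, 2.54-fold lower (2.48 to 2.59) on chromosome 14 and 5.62-fold lower (5.46 to 5.80) on the X chromosome. Without miR-17-3p, the other 2 Mir17 arms had a log2 ratio of -1.29 in place of -0.83.

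miR-20a and miR-20b show the difference between the clusters in a closely related pair, whose passenger arms differ by 5 edits and whose guides differ by 2. In Th0 miR-20b-3p was at 24.9 CPM (21.6 to 28.5) and miR-20a-3p at 18.8 (16.0 to 22.0), with intervals that just overlap. In Th17 the order was turned, with miR-20a-3p at 8.10 CPM (6.57 to 9.88) and miR-20b-3p at 4.34 (3.24 to 5.69). The guides kept their order, miR-20a-5p above miR-20b-5p in both libraries, at 1087 and 584 CPM in Th0 and 408 and 75.8 CPM in Th17.

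The passenger arms of the Mir106b cluster were nearest to no change. miR-106b-3p had 6486 reads in Th0 and 7755 in the deeper Th17 library, or 776 and 648 CPM, 1.20-fold lower (1.16 to 1.24). miR-25-5p had 870 and 1087 reads, or 104 and 90.8 CPM, 1.15-fold lower (1.05 to 1.25). miR-93-3p had 481 and 620 reads, or 57.5 and 51.8 CPM, 1.11-fold lower with an interval that spans 1 (0.985 to 1.25). All 3 intervals overlap. With DESeq2 size factors the interval of miR-25-5p also spanned a log2 ratio of 0 (-0.25 to 0.011). Their guides were not alike, at 1.80-fold lower for miR-106b-5p (1.75 to 1.86), 1.77-fold for miR-93-5p (1.76 to 1.79) and 1.12-fold for miR-25-3p (1.12 to 1.13).

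**Figure D2:**
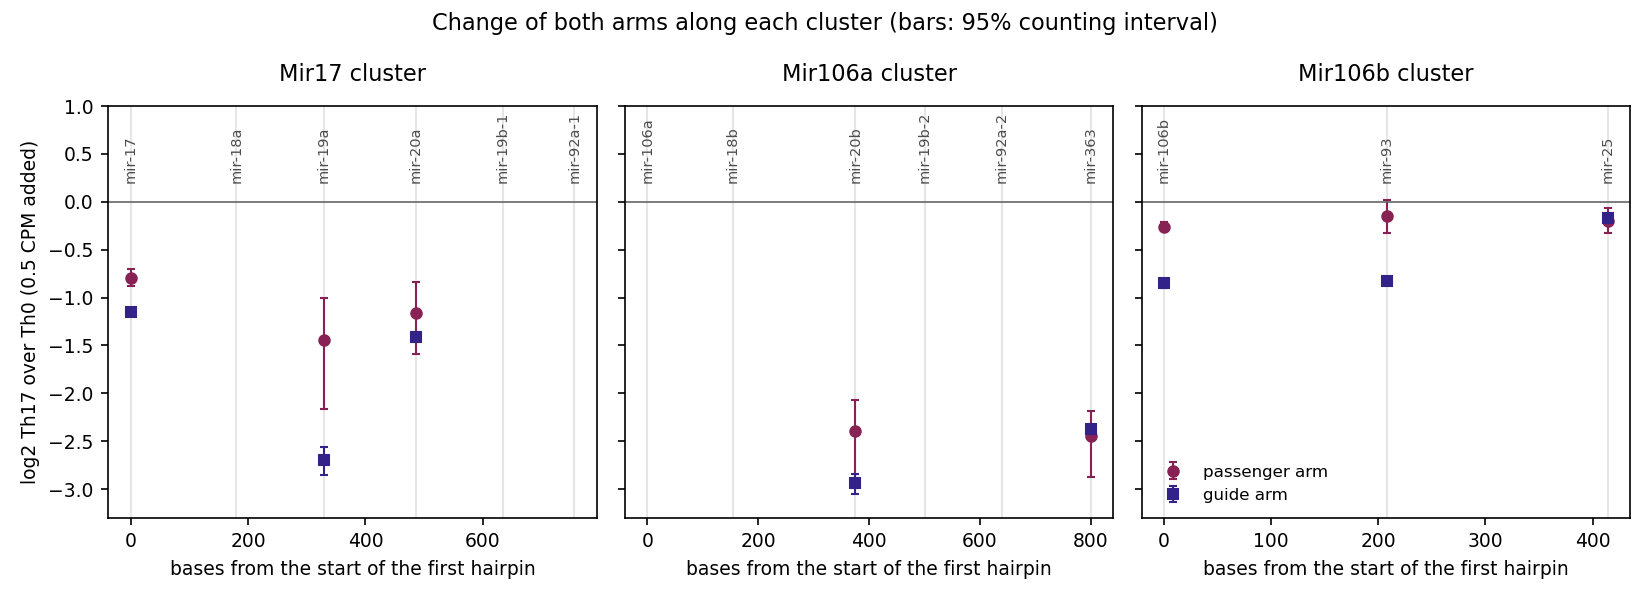
Log2 ratio of Th17 over Th0 for the passenger arm (circles) and guide arm (squares) of each hairpin, placed by its distance from the first hairpin of its cluster in the direction of transcription, with 95% counting intervals. Passenger arms lie near -2.4 in the Mir106a cluster, between -1.44 and -0.79 in the Mir17 cluster and above -0.3 in the Mir106b cluster.

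Across the 8 hairpins the passenger and guide ratios went together, with Pearson's r of 0.91 and Spearman's rho of 0.90 on the log2 scale. Over 167 hairpins with at least 100 reads in each library and reads of both arms in both, Pearson's r was 0.67. These are descriptions across hairpins of the same 2 libraries, hairpins of a cluster share a transcript, and both arms are scaled by the same totals. Some of the 167 had very few passenger reads, such as mir-320 with 1 in each library, while the 8 had 39 or more. The r values are therefore not like for like. By point estimate 6 of the 8 passenger arms had a ratio nearer to 1 than their guide. The median difference, passenger minus guide, was 0.45 on the log2 scale with 0.5 CPM added. That addition draws the ratios of arms at low levels toward 0, for miR-20b-3p from -2.52 to -2.39, and so widens the difference. Without it, the ratio of passenger to guide reads changed by a median of 1.31-fold.

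**Figure D3:**
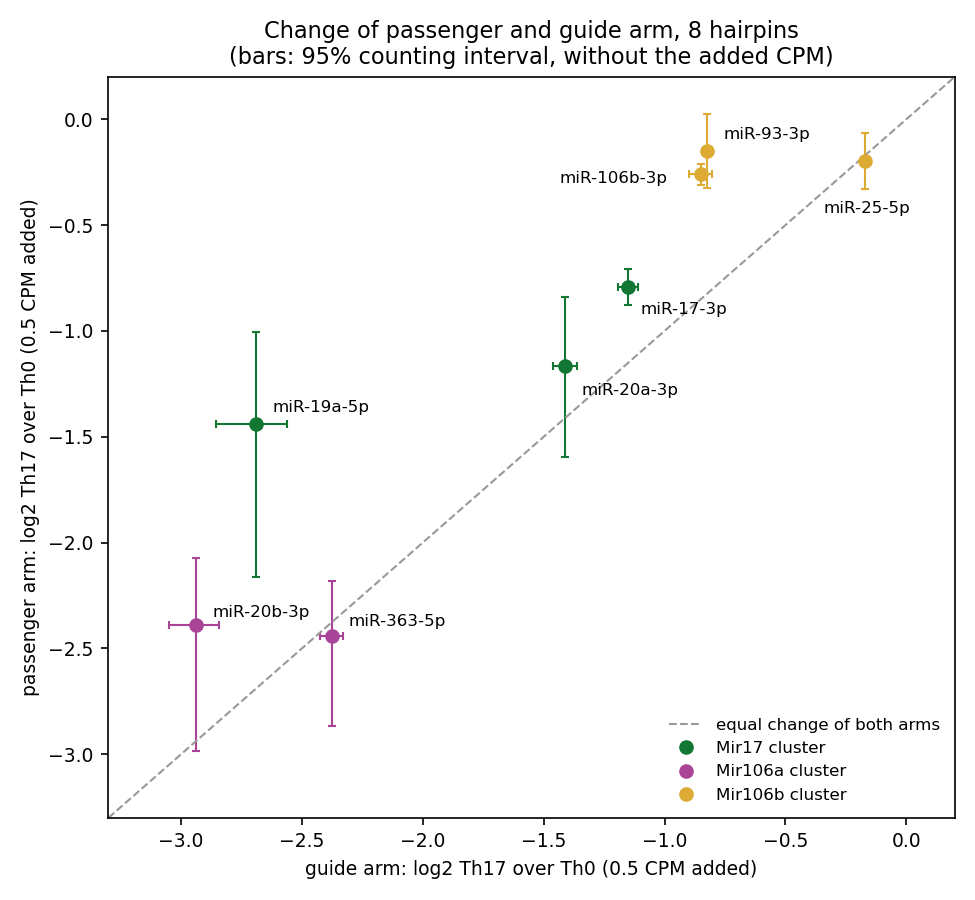
Log2 ratio of Th17 over Th0 of each passenger arm against that of the guide arm of its hairpin, colored by cluster, with 95% counting intervals, where the dashed line marks equal ratios. The 6 points above the line had guides that were lower by more than the passenger arm, and miR-25-5p and miR-363-5p lie at the line.

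The passenger-to-guide ratio within a hairpin does not depend on the scaling of the libraries. Its change was the ratio in Th17 over that in Th0, with an exact conditional interval. The interval lay above 1 for 4 of the 8 hairpins, against 22.5% of 173 hairpins with at least 100 reads over both arms in each library. It lay below 1 for 0 of 8, against 25.4%. All 8 had at least 100 passenger reads over both libraries, and among the 105 hairpins that did, 34.3% lay above and 35.2% below. The median change was 1.31 over the 8 and 1.01 over the 173.

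The largest change was that of mir-19a, from 3.80 passenger reads per 100 guide reads in Th0 to 8.33 in Th17, 2.19-fold (1.44 to 3.30). It rests on the 81 and 39 reads of miR-19a-5p. mir-93 went from 0.377 to 0.601 per 100 guide reads, 1.59-fold (1.41 to 1.80). In mir-93 the passenger level was within counting error in both libraries while the guide was lower in Th17. mir-17 went from 19.7 to 25.2 per 100, 1.28-fold (1.20 to 1.37).

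The mir-106b hairpin went from 75.6 passenger reads per 100 guide reads to 114, 1.51-fold (1.44 to 1.58). Its RefSeq sequence is shown with the arms in capitals, miR-106b-5p first and miR-106b-3p second.
Mir106b hairpin: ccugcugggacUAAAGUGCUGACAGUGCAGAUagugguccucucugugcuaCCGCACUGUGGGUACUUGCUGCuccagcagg
Of the reads of its arms, miR-106b-3p held 43.1% in the Th0 library (42.3 to 43.9%) and 53.2% in the Th17 library (52.4 to 54.1%). By reads, the arm named as passenger was therefore the minor one in Th0 and the major one in Th17. Whether both arms were captured equally well was not tested. A shift of at least 10 percentage points with intervals apart was found for this 1 hairpin of the 8, just past the limit at 10.2, against 2.31% of the 173. The 4 hairpins behind that share include mir-106b itself and mir-18a of the Mir17 cluster (26.6% to 46.9%), which shifted further. By point estimate the major arm also changed outside the clusters, for example in mir-33 (43.4% to 51.6%). In the other 7 hairpins the passenger arm was the minor arm in both libraries, with a share of at most 20.1%. At least 1.5-fold was reached by mir-19a, mir-93 and mir-106b, 3 of 8, against 12.1% of the 173 and 17.1% of the 105, and mir-106b is just above that limit. At least 2-fold was reached by mir-19a alone, against 5.78% of the 173.

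For the other 4 hairpins the interval spanned 1. The change was 1.34-fold for mir-20b (0.964 to 1.85), 1.15-fold for mir-20a (0.880 to 1.49), 0.980 for mir-25 (0.896 to 1.07) and 0.908 for mir-363 (0.710 to 1.15). For mir-25 the counting interval leaves room for little change in either direction, while for mir-20b it reaches from near 1 to 1.85. The median passenger share over the 8 was 2.91% in Th0 and 3.69% in Th17, against 1.93% and 1.61% over the 173.

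**Figure D4:**
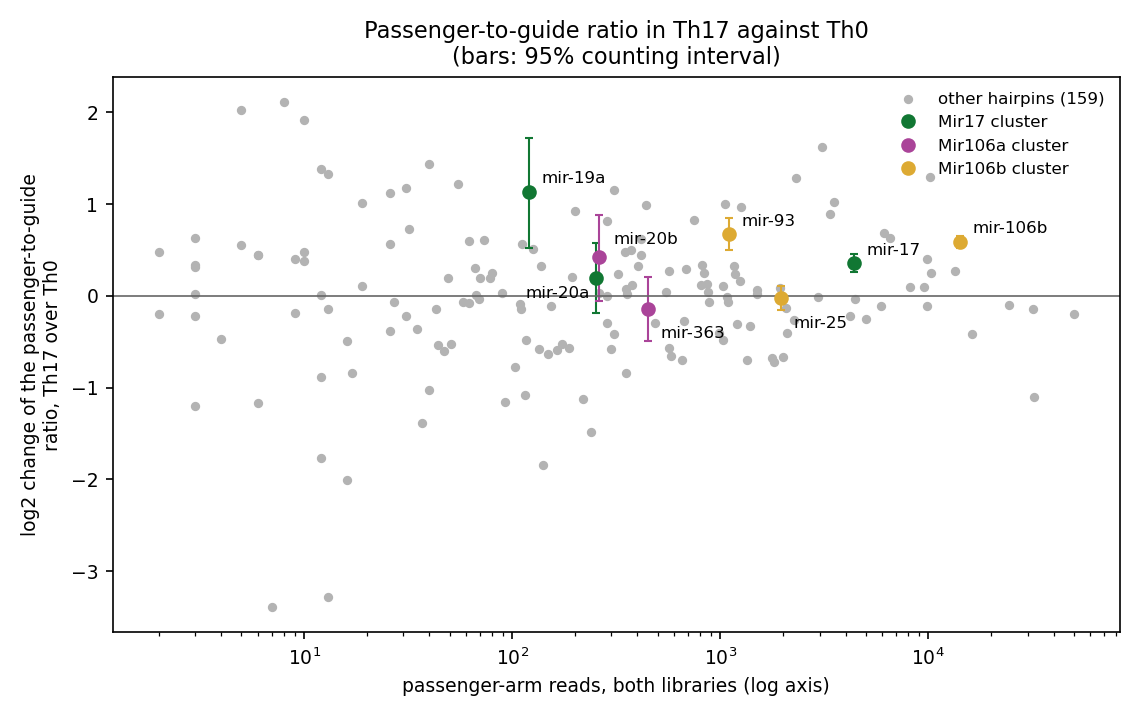
Log2 change of the passenger-to-guide ratio, Th17 over Th0, against the passenger-arm reads of both libraries (log axis), for the 8 hairpins with 95% counting intervals and for 159 other hairpins with at least 100 reads in each library and reads of both arms (gray, no intervals). Of the colored points mir-19a is the highest at 1.13, mir-93 and mir-106b follow at 0.67 and 0.59, and mir-363 is the lowest at -0.14.

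Outside the 3 clusters, 12 of the 160 hairpins with enough reads had a guide arm with a log2 ratio of -1 or lower. In these the passenger-to-guide interval lay above 1 for 5 and below 1 for 1, with a median change of 1.29. Over all 160 the interval lay above 1 for 32 and below for 44, with a median of 0.995. Guide reads enter both the choice of the 12 and the ratio, so this is a description. Hairpins whose passenger level differed by less than the guide's also occurred outside the clusters, but this choice cannot show how common they are.

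Levels of the cluster miRNAs were also summed by seed. The seed CUGCAGU, carried by miR-17-3p, miR-20b-3p and miR-106a-3p, had 316 CPM in the Th0 library and 172 in the Th17 library, 1.84-fold lower (1.73 to 1.95), nearly all of it from miR-17-3p. The guide seed AAAGUGC, over 6 guide arms of the clusters, summed to 19688 and 10372 CPM, 1.90-fold lower (1.88 to 1.91). Most of that sum was miR-93-5p (15275 and 8618 CPM). The 6 arms ran from 1.77-fold lower for miR-93-5p to 7.70-fold lower for miR-20b-5p. The seed CGCACUG of miR-106b-3p, shared with no other mature sequence in the table, was more abundant than the CUGCAGU seed in each library, at 776 and 648 CPM.

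Outside the clusters, the 5 miRNAs above the 10 CPM minimum whose log2 ratio was nearest to that of the summed passenger arms (-0.43) were miR-148b-5p, miR-378d, miR-467b-5p, miR-3057-5p and miR-467a-3p. Their log2 ratios ran from -0.43 to -0.42. The measure is 1 ratio over 2 libraries, so many miRNAs lie close by.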

How the data were processed

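Small RNA of 1 Th0 and 1 Th17 library was sequenced with TruSeq small RNA chemistry, per the labels' protocols. The authors deposited, per mature miRNA, a whole-number read count and a TPM value, which is the count divided by 1 total per library (9072995 and 13070648 reads) and scaled to 1000000. Per the submitters' processing notes the build was mm10. No source used here gives the aligner, the annotation release or the handling of multi-mapping reads.

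Counts were divided by the sum of listed reads, a miRNA missing from 1 library counting as 0. Log2 ratios had 0.5 CPM added, and folds had none. Ratio intervals are exact conditional (Clopper-Pearson) and level intervals exact Poisson, both 95%. Changes of the passenger-to-guide ratio had exact conditional intervals for the 8 hairpins and log-normal (Woolf) intervals for the background. Reads copied by PCR and lacking molecular identifiers are not independent, so intervals cover counting error only. No test of the conditions was possible and no p-value is given. Hairpins that share a mature miRNA were joined, and the passenger arm was the one with fewer reads over both libraries. Edits are Levenshtein distances.

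The named miRNAs are the 8 members, their guides, the other arms of the 3 clusters and the 5 nearest ratios. Members, lists and rules were chosen with earlier results of these data known. Scaling alternatives used edgeR 4.0.16 and DESeq2 1.42.0 in R 4.3.3. Intervals and calls were also run on simulated Poisson counts, with Woolf intervals for the passenger-to-guide ratio. Those counts hold no spread between cultures or from PCR, so the run checks only the calculation. Positions are from GENCODE M21 and sequences from RefSeq. The mature sequences of miR-19a-5p and miR-363-5p are not shown here.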

Additional observations from a re-analysis of the deposited data

How the results depend on the processing

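All 48 alternative log2 ratios of the 8 passenger arms stayed below 0. For most alternatives this was fixed in advance. Adding another number of CPM cannot change the sign of a ratio. The authors' TPM totals and leaving out the 10 most abundant miRNAs lower every ratio before CPM is added. Only edgeR's TMM factors and DESeq2 size factors raised ratios, by 0.0088 and 0.078 before that addition. The ratio nearest to 0 was -0.15, of miR-93-3p, so shifts of this size could not change a sign either. Leaving the 10 most abundant miRNAs out of the totals lowered every log2 ratio by 0.13 before the 0.5 CPM was added, and by more for arms at low levels with it, taking miR-19a-5p to -1.65, miR-20b-3p to -2.60, miR-17-3p to -0.92, miR-106b-3p to -0.39 and the summed arms to -0.56. With DESeq2 size factors miR-106b-3p was at -0.18 and the sum at -0.35. Without miR-106b-3p the sum was at -0.72. The number of passenger arms with an interval below 1 was 6 with DESeq2 size factors and 8 without the 10 most abundant. The 3 arms at least 2-fold lower were 3 under every scaling and 0 at a minimum of 100 CPM, which 2 arms reached. Over all miRNAs, 39 were lower and 20 higher, against 50 and 15 without the 10 most abundant, 100 and 69 with no minimum and 15 and 13 at 100 CPM. Other read minimums, 0.5 reads added to each arm and naming the passenger by Th0 alone kept each arm value within its interval and each count of hairpins within 1.5-fold. The sums per cluster without the most abundant arm and the minimum of 100 passenger reads were chosen after seeing the data. No paired analysis was possible because each group is 1 column of reads. Depth limits miR-19a-5p, miR-20a-3p, miR-20b-3p and miR-363-5p most, with 39 to 97 reads in Th17.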

Other observations

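The remaining passenger arms of the 3 clusters also separate loci whose guides cannot be told apart. The guides miR-92a-3p and miR-19b-3p each come from a hairpin on chromosome 14 and a further one on the X chromosome. Of their passenger arms, miR-92a-1-5p from chromosome 14 had 7126 reads in Th0 and 6215 in Th17, or 853 and 519 CPM, and was 1.64-fold lower (1.59 to 1.70). miR-92a-2-5p from the X chromosome had 28 and 2 reads. Its 2 Th17 reads are below the limit of 3 counts, so its ratio of Th17 over Th0, 0.050, is known only within 0.0058 to 0.20. That of miR-92a-1-5p was 0.61 (0.59 to 0.63). miR-19b-1-5p had 16 and 9 reads, and miR-19b-2-5p 1 and 0, which is at or below the limit of 3 counts. miR-106a-3p, which carries the seed of miR-17-3p, had 13 reads in Th0 and 6 in Th17.

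The hairpins of mir-18a and mir-18b, outside the set, had passenger-to-guide changes of 2.43-fold (2.19 to 2.70) and 1.54-fold (1.17 to 2.00). That of mir-106a was 2.01-fold on few reads, with an interval from 0.624 to 5.71. Among the 8 hairpins described, mir-19a at 2.19-fold was the nearest to mir-18a.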
